A study of Drosophila melanogaster with 2 samples.

Results

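Binding of the CG11085-eGFP fusion protein was mapped at the nuclear genes for subunits of the respiratory chain and of ATP synthase. The genes were chosen by symbol alone: protein-coding genes on the chromosome arms of the Ensembl release 115 annotation whose symbol begins with ND-, UQCR-, ATPsyn or Sdh, or with COX and a digit. The rule found 88 genes among 13945. They comprised 40 genes of complex I, 8 of complex II, 9 of complex III, 16 of complex IV and 15 of complex V. Of the 88, 24 are called copies here, since their symbol is that of another gene followed by L, or by L and a digit. At 20 of them this is the other gene's present symbol, and at 4 an older one, for genes now named levy, cype and sun. Another, Sdhaf3, is an assembly factor of succinate dehydrogenase and not a subunit. The remaining 63 genes are called subunits.

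The sources give 1 group: embryos of Drosophila melanogaster, taken whole between 0 and 24 hours of age from a fly strain with an insertion that expresses the CG11085 protein fused to eGFP, and precipitated with an antibody against GFP. There were 2 biological replicates, and all embryos carried the fusion. CG11085 is a homeodomain protein, and every cell type of the embryo contributed to the chromatin. No condition was varied and no control precipitation was analysed here, though the peaks were made with 1 control file, per the deposited file lists, so the genes were compared with one another and with all other protein-coding genes. The files held peak lists on dm6 and no read totals, so the depth is unknown and no counting interval can be given.

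Complex I (NADH dehydrogenase) and complex II (succinate dehydrogenase) feed electrons into the chain in the inner mitochondrial membrane, complex III passes them to cytochrome c, and complex IV (cytochrome c oxidase) passes them to oxygen. Complex V (ATP synthase) uses the resulting proton gradient to make ATP. A few subunits of complexes I, III, IV and V are encoded in mitochondrial DNA, and the genes described here are their nuclear partners. Many of the duplicated genes of this kind in Drosophila are known to be expressed mainly in the testis.

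A gene was called bound when the summit of a peak in the authors' conservative list lay within 1 kb of an annotated transcription start site (TSS) of the gene. That list held 2610 peaks on the arms, all with an irreproducible discovery rate (IDR) of at most 0.01 between the replicates. By this rule 13 of the 88 genes were bound, or 14.8%, against 15.1% of all protein-coding genes, so the share of the whole set lay at the background. In whole embryos a peak in few cells cannot be told apart from a weak one in many. The bound genes fell into 3 of the 5 complexes. Complex I had 7 of 40 (17.5%), complex IV 4 of 16 (25%) and complex V 2 of 15 (13.3%). Complex II had 0 of 8 and complex III 0 of 9.

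All 13 bound genes were subunits, and 0 of the 24 copies were bound. Without the copies and Sdhaf3, 13 of 63 subunits were bound (20.6%). The shares were then 7 of 34 in complex I (20.6%), 4 of 8 in complex IV (50%), 2 of 11 in complex V (18.2%), 0 of 4 in complex II and 0 of 6 in complex III. These groups are small, and no test was made between them.

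**Figure D1:**
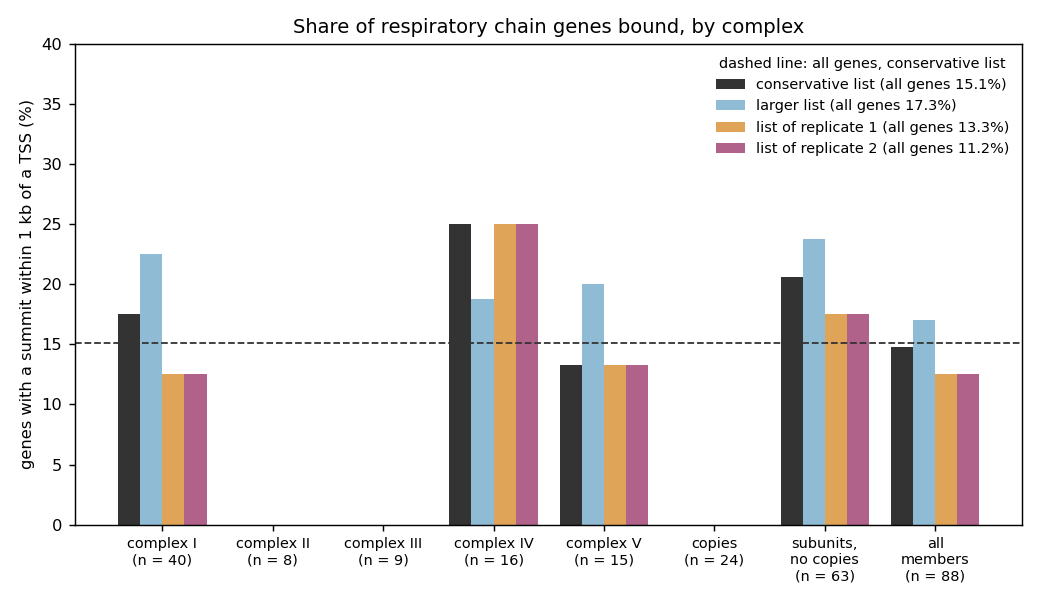
Percentage of genes (y axis) in each complex, among the copies, among the subunits without copies and among all 88 members with a summit within 1 kb of a TSS, in 4 peak lists (bar colours), with the number of genes under each group. Complexes II and III and the copies have no bar in any list, and the conservative list puts all members at 14.8%, beside the dashed line for all genes at 15.1%.

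The strongest peak of the set lay at ND-ASHI, a membrane-arm subunit of complex I. It covered chrX:6679293-6679461, with a signal of 342 in the conservative list, and replicates 1 and 2 gave 203 and 142. Its summit stood 265 bp upstream of the nearest ND-ASHI start and 257 bp upstream of the nearest Fum1 start. Fum1 is the gene for fumarase of the citric acid cycle and is read in the other direction. Another Fum1 start lies 164 bp from an ND-ASHI start, and the summit was downstream of that Fum1 start. Peak signals are on the authors' scale and were compared only within a list. The signal of ND-ASHI ranked 232 of 2109 bound genes, the highest rank among the respiratory chain genes.

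The DNA around the summits is shown for 7 bound subunits, chosen to include the strongest peak, the weakest, and peaks of complexes I, IV and V. Each stretch lies within 50 bp of the summit, leaves out annotated exons, is written from 5′ to 3′ on the strand of the respiratory chain gene, and was read from the RefSeq copy of the genome, whose coordinates match dm6. Capitals mark matches, on either strand, to the words described further on.
ND-ASHI (chrX:6679333-6679433, minus strand): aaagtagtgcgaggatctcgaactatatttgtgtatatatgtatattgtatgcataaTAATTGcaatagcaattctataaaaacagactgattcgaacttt
ND-51 (chr2L:6062833-6062933, minus strand): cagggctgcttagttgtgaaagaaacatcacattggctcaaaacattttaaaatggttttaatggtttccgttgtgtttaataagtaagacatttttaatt
ND-MNLL (chrX:7893842-7893942, minus strand): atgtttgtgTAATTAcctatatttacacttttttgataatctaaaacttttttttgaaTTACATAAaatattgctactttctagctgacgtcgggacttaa
COX5B (chr2L:6557503-6557599, plus strand): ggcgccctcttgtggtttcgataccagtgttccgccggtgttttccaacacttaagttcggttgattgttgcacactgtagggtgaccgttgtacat
COX6B (chrX:19744343-19744430, minus strand): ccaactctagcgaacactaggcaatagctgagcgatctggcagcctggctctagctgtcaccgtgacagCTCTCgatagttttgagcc
COX8 (chr3L:21539453-21539553, minus strand): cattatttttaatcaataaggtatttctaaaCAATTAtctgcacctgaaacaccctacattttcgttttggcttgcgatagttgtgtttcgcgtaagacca
ATPsynCF6 (chr3R:23356074-23356174, minus strand): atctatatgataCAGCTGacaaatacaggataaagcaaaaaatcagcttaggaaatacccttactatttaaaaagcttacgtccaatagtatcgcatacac
The stretches differ in base composition: G and C made up 28.7% of the ND-ASHI stretch and 25.7% of the ND-MNLL stretch, but 50.5% at COX5B and 54.5% at COX6B.

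In complex I, ND-51 and ND-24, which belong to the part of the enzyme that takes electrons from NADH, were among the bound subunits. ND-75, ND-13A, ND-B8 and ND-18, other subunits of complex I, were not bound. The part that takes electrons from NADH was not compared as a group. The ND-51 peak (chr2L:6062713-6063052) reached 199 (126 and 64.8 in replicates 1 and 2), and the summit stood 126 bp before ND-51 and 106 bp before CG13994. The ND-24 peak (chrX:17632022-17632361) reached 189 (114 and 75.4). Its summit stood 103 bp downstream of the ND-24 start, outside annotated exons, and 145 bp upstream of corolla, a gene of the synaptonemal complex. It was the only bound complex I gene with the summit inside the gene.

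The other bound complex I genes encode accessory subunits. ND-SGDH (chr3L:12138604-12138943) reached 114 (57.7 and 37.4), 190 bp upstream of its start. ND-42 (chr3R:22027347-22027686) reached 82.0 (56.3 and 31.7), 192 bp upstream of its start and 37 bp upstream of Cchl, which encodes the enzyme that attaches heme to cytochrome c. ND-MNLL (chrX:7893722-7894061) had the lowest signal of the 13, at 71.5 (46.6 and 28.5). These 3 genes were also the ones that neither single-replicate list held. The threshold of the list lies at a negative log10 IDR of 2.00, and ND-MNLL stood just inside it at 2.01.

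ND-MWFE, a small accessory subunit of complex I, carried a peak on arm 2R (dm6 13158311 to 13158650). Its signal was 219, second to ND-ASHI, with 112 in each replicate. The summit lay 185 bp upstream of ND-MWFE and 36 bp upstream of TppII, the gene for tripeptidyl peptidase II. It was the only bound gene of the set on that arm, which holds 17 of the 88.

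Complex IV was represented by COX5A, COX5B, COX6B and COX8, all nuclear subunits that surround the catalytic core made from mitochondrial DNA. COX5B (chr2L:6557489-6557581) reached 197, with replicates 1 and 2 at 115 and 80.3. COX6B (chrX:19744223-19744562) had 161, with 91.3 and 69.2, COX5A (chr3R:11819356-11819695) had 145, with 99.8 and 49.4, and COX8 (chr3L:21539333-21539672) had 136, with 79.5 and 65.2. The 4 peaks thus lay within a narrow range, and all 4 were found in both single-replicate lists. Their summits stood 251 bp (COX5B), 58 bp (COX6B), 73 bp (COX5A) and 56 bp (COX8) upstream of the nearest start of each gene. COX5A also has an earlier start, and its summit lay downstream of that one, inside the gene. At COX5B the summit was nearer to IFT52, an intraflagellar transport gene, at 47 bp, and at COX6B it was nearer to CG33932, at 38 bp.

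In complex V, the bound genes were ATPsynE, whose product is known to hold ATP synthase dimers together, and ATPsynCF6, a subunit of the peripheral stalk. ATPsynE had a peak with its summit 2 bp downstream of a start (chr3R:14326779-14327118), which reached 116 (71.3 and 52.6 in replicates 1 and 2). A separate peak inside its 1 kb window, 850 bp downstream of a start, had a signal of 109.5. The summit of that peak lay beyond the end of ATPsynE and was nearer to spn-B, 133 bp upstream of it. ATPsynCF6 (chr3R:23355954-23356293) reached 106 (52.5 and 60.7), 60 bp upstream of its start. It was the only bound gene whose strongest peak had the higher value in replicate 2. Each of the 2 genes also had a weak extra summit (11.3 at ATPsynE, 19.3 at ATPsynCF6) that shared its replicate regions with the stronger one.

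**Figure D2:**
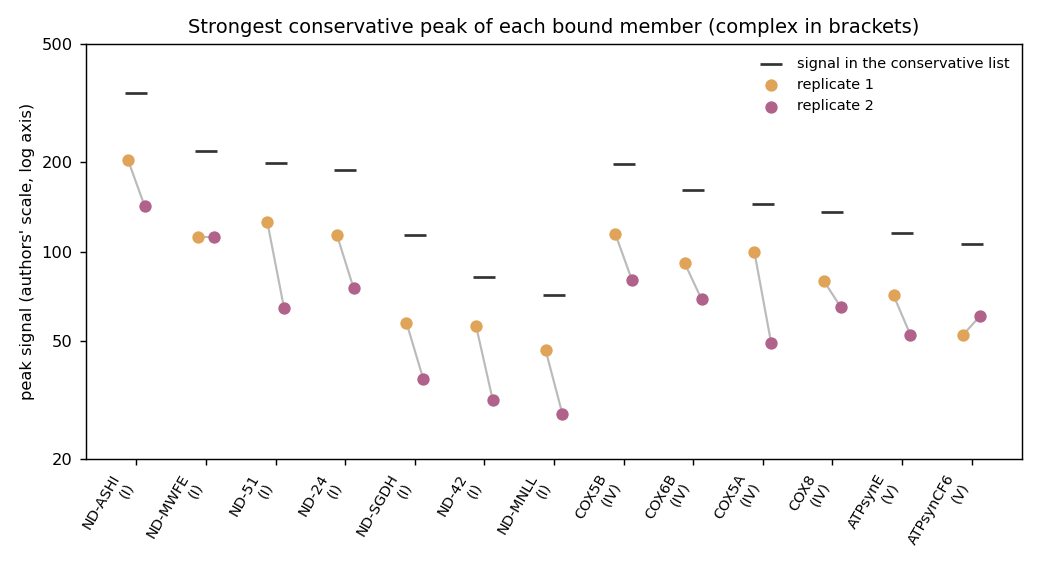
Signal of the strongest conservative peak (y axis, authors' scale, log axis) at each of the 13 bound genes, ordered by complex and signal: the bar is the value in the conservative list and the points are the values of the 2 replicates. To 3 digits, replicate 1 was higher at 11 genes, replicate 2 at ATPsynCF6, and ND-MWFE was at 112 in both; the list values run from 342 at ND-ASHI to 71.5 at ND-MNLL.

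Over all 16 member peaks the median signal was 126, with quartiles of 100 and 191, against 136, with quartiles of 97.6 and 207, for the 1622 conservative peaks within 1 kb of any protein-coding TSS. Before rounding, replicate 1 had the higher value at 14 of the 16 (87.5%), ND-MWFE by less than the printed digits show, and at 92.7% of the 1622, and the median ratio of replicate 1 to replicate 2 was 1.42 against 1.52. Replicate 1 was thus the higher one at most peaks of the set and at most peaks near protein-coding starts. Of the 16, 10 were found in both single-replicate lists (62.5%, against 56.9%) and 4 in neither. By bound gene, with the strongest peak of each, the median signal was 145 for the members and 146 for all 2109 bound genes.

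The bound subunits shared an arrangement that the choice by symbol did not use. A gene was said to have a head-to-head partner when a protein-coding gene on the other strand started within 500 bp upstream of it. All 13 bound genes had such a partner. Of the 88 genes 39 had one (44.3%, against 27.4% of all genes), and 13 of these 39 were bound, or 33.3%, against 28.3% of all genes with a partner. Of the 49 without a partner 0 were bound, against 10.2% of all genes without one. The 49 were 27 subunits, 21 copies and Sdhaf3. The partner was counted within 500 bp. Within 250 bp, 9 of 25 members with a partner and 4 of 63 without one were bound, against 24.8% and 13.5% of all such genes. Partners within 500 bp were not particular to this set. Among lists described further on, 72.6% of mitochondrial ribosomal protein genes and 57.1% of citric acid cycle genes had one, but 26.7% of import genes. Among subunits and carriers under other symbols, also described further on, 4 of 7 genes without a partner were bound.

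Partners were unevenly spread over the complexes. Complex I had a partner at 20 of 40 genes and complex V at 9 of 15, where 7 and 2 were bound. Complex IV had one at 7 of 16, with 4 bound. In the complexes with no bound gene partners were few, at 1 of 8 in complex II and 2 of 9 in complex III. Among the copies 3 of 24 had a partner (12.5%), against 36 of the 63 subunits (57.1%). Groups that differ in bound genes thus also differ in the number of partners, and whether the 2 are related was not tested.

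Taking the starts nearest to the summit, most summits lay in the stretch shared by the 2 genes. At 11 of the 13 bound genes the strongest summit was upstream of both of these starts, and at ND-24 and ATPsynE it was upstream of the partner only. Among the 11, the COX5A summit was downstream of another start of COX5A, and the ND-ASHI summit downstream of another start of Fum1. The summit was nearer to the respiratory chain gene at 6 and nearer to the partner at 7. Of the 1622 peaks, 44.5% were within 1 kb of more than 1 protein-coding gene. The partners within 500 bp at all 13 bound genes largely fix this share for the member peaks, so the 2 are not alike. All 16 member peaks were within 1 kb of at least 1 other protein-coding gene. Binding at these sites can therefore be read as binding at the partner as well, and the files do not tell the 2 apart. If each summit were given to its nearest gene only, 6 of the 88 respiratory chain genes would be bound (6.82%), below the 10.6% of all genes under the same rule. They were ND-24, ND-MNLL, COX5A, COX8, ATPsynCF6 and ATPsynE, where ND-MNLL tied with CG45089, 94 bp from the same summit.

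**Figure D3:**
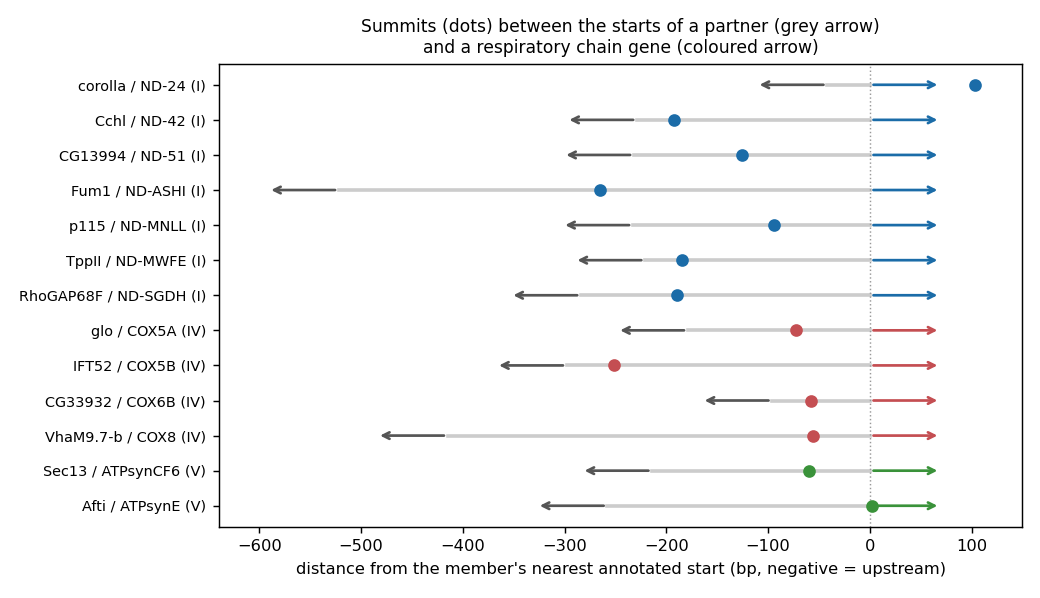
Position of the strongest summit (dot) along the line from the partner's start (grey arrow, pointing in its direction of reading) to the respiratory chain gene's start at 0 (coloured arrow), in bp upstream (negative) or downstream, for the 13 bound genes. At 11 genes the dot lies between the 2 starts; at ATPsynE it lies at 2 bp and at ND-24 at 103 bp. Where a gene has several starts, the ones nearest to the summit are drawn.

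The partners had varied roles. Fum1 (next to ND-ASHI) and Cchl (next to ND-42) also act in mitochondria. Others act elsewhere in the cell: VhaM9.7-b, beside COX8, encodes a subunit of the vacuolar proton pump, Sec13, beside ATPsynCF6, a coat protein of vesicles from the endoplasmic reticulum, and p115, beside ND-MNLL, a Golgi tether. Head-to-head pairs of mitochondrial genes occurred without binding too, in examples picked after their values were seen. The starts of ND-B16.6 and kdn (citrate synthase) lie 228 bp apart, and the strongest region at ND-B16.6 had a signal of 55.9. ATPsynD and mRpL55 start 95 bp apart, and ATPsynD had no ranked region.

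The authors' ranked file also holds regions that did not pass the threshold, and it gives a value for most unbound genes. At least 1 ranked region lay within 1 kb of a TSS at 71 of the 88 genes. Taking the strongest one at each gene, and 0 where there was none, the median was 40.6 for the 88 genes, with quartiles of 20.8 and 61, and 39.6 for all protein-coding genes, with quartiles of 24.9 and 59.6. By complex it was 38.1 in complex I, 39.9 in II, 37.4 in III, 55.0 in IV and 41.3 in V. Complex II reached at most 52.8 and complex III at most 68.8, so their genes had ordinary signal below the threshold and none above it. Of the 75 unbound genes, the 26 with a partner had a median of 40 and the 49 without one 37.0.

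**Figure D4:**
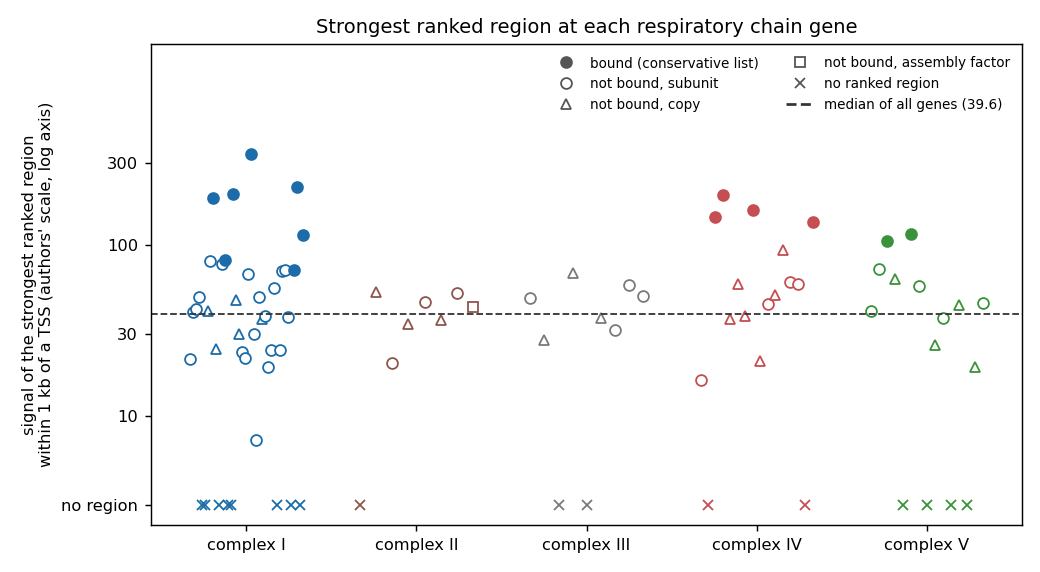
Signal of the strongest ranked region within 1 kb of a TSS (y axis, authors' scale, log axis) at each of the 88 genes by complex; filled symbols are bound in the conservative list, triangles are copies, the square is Sdhaf3 and crosses mark the 17 genes with no ranked region. Filled symbols appear in complexes I, IV and V, from 71.5 to 342, and the open symbols scatter around the median of all genes at 39.6.

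The highest signals at unbound genes belonged to COX7AL2 at 92.9, ND-23 at 80.9, ND-39 at 77.8, ATPsynC at 72.0 and ND-B22 at 71.4. These were stronger than or near the ND-MNLL peak, and their replicates are given in the order 1 and 2. COX7AL2, a copy of COX7A, had 71.4 and 22.9 in replicates 1 and 2, and ND-39 had 68.8 and 11.8. ATPsynC, whose product forms the rotor ring of ATP synthase, had 64.4 and 18.1, and ND-23, an iron-sulfur subunit of complex I, had 62.2 and 24.3. ND-B22 had 42.1 and 33.8 and stood just outside the threshold, with a negative log10 IDR of 1.98. UQCR-14L, at 1.91 with a signal of 68.8, was the complex III gene nearest to it.

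Other peak lists moved single genes across the line without moving the set away from its background. In the authors' larger list 15 genes were bound (17%, against 17.3% of all genes): 9 of complex I, 3 of complex IV and 3 of complex V. It added ND-23, ND-39, ND-B22, ND-B18 at 70.4 and, at 105, ATPsynbeta, the catalytic subunit of ATP synthase on chromosome 4. It lacked ND-42, ND-SGDH and COX8. The list of replicate 1 held 11 genes (12.5%, against 13.3%) and that of replicate 2 also 11 (12.5%, against 11.2%), each with 5 of complex I, 4 of complex IV and 2 of complex V. ND-39 was in the first of these and ND-AGGG, with a signal of 38.1, in the second. Complexes II and III and the copies had 0 bound genes in all 4 lists.

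As a measure of what lies below the threshold, the strongest regions that did not pass were taken in the same number as the conservative peaks on the arms, a choice made after seeing the data. They reached 8 of the 88 genes (9.09%), against 8.56% of all genes. Of these, 5 were in complex I, 1 in complex III, 1 in complex IV, 1 in complex V and 0 in complex II, and COX7AL2 and UQCR-14L were copies.

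The 24 copies are named after 21 genes, of which 6 were bound: ND-24, ND-51, COX5B and ATPsynCF6 of the set, and levy and cype, which encode subunits of complex IV under other symbols. The 8 copies of these 6 had strongest regions between 20.9 and 62.9, each below that of the gene it is named after. ND-24L had 24.6 against 189 at ND-24, ND-51L1 had 47.8 and ND-51L2 30 against 199 at ND-51, and COX5BL had 37.0 against 197 at COX5B. ATPsynCF6L had 62.9 against 106 at ATPsynCF6. COX6AL had 59.4 and COX6AL2 38.4 against 304 at levy, and COX6CL had 20.9 against 97.8 at cype. Since these 6 genes were picked for having a peak, the direction is a description only.

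Copies of unbound genes did not share that order. COX7AL2 (92.9) and COX7AL (51.1) stood above COX7A (44.9), and SdhBL (34.3) above SdhB (20.5), while SdhCL (36.5) stood below SdhC (46.3), UQCR-11L (27.9) below UQCR-11 (48.7) and ND-B14.5AL (37.1) below ND-B14.5A (49.8). ND-20L (40.9), SdhAL (52.8), UQCR-14L (68.8) and UQCR-6.4L (37.4) had a ranked region where ND-20, SdhA, UQCR-14 and UQCR-6.4 had none. The same held for ATPsynGL (25.9), ATPsynbetaL (44.3) and ATPsynepsilonL (19.4) beside ATPsynG, ATPsynbeta and sun. ATPsynbeta did have a peak in the larger list, at 105. COX4L and COX7CL had no ranked region, beside 16.2 at COX4 and 58.9 at COX7C, and neither ND-49L nor ND-49 had one. ATPsynbeta and ND-49 lie on chromosome 4, where 1 of 80 genes was bound. The median over all 24 copies was 37.0, near that of all genes, and that over the 63 subunits was 44.9.

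Subunits and electron carriers that the symbol rule leaves out were listed separately, and 5 of 8 were bound. In complex IV, levy reached 304 (180.0 and 128 in replicates 1 and 2) and cype 97.8 (78.2 and 30). In complex V, blw, the alpha subunit of ATP synthase, had 245 (134 and 112) and sun, its epsilon subunit, had no region. The cytochrome c genes Cyt-c-p and Cyt-c-d had 267 (183 and 90.1) and 223 (123 and 89.3), with summits 911 bp and 386 bp downstream of their starts. In complex III, RFeSP, the Rieske iron-sulfur protein, had 36.4 and Cyt-c1 had 24.1, and neither was bound. With these subunits added, 6 of 10 subunits of complex IV were bound (60%), 3 of 13 of complex V (23.1%) and 0 of 8 of complex III. Of the 5 bound genes of this list, 1 had a head-to-head partner within 500 bp and 4 had none.

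Related mitochondrial genes gave a mixed picture beside the 15.1% of all genes. A list of citric acid cycle and pyruvate dehydrogenase genes had 6 bound of 14. The bound ones were Fum1, with the ND-ASHI peak, Idh3g at 302, Pdhb of pyruvate dehydrogenase at 194, Idh3b at 149.7, Ogdh at 116 and mAcon1 at 92.3. Unbound genes of this list included kdn at 36.1, Idh3a at 58.0 and Mdh2 at 12.9. Among assembly factors 2 of 7 were bound; the list had 9 symbols, of which Cox15 and Ecsit matched no annotated gene and were not used. CIA30, which helps to assemble complex I, reached 1329 (796 and 546 in replicates 1 and 2), above every respiratory chain subunit, and Cox17, a copper carrier for complex IV, had 99.1. Surf1 (39.1) and Cox11 (22.0), which act in complex IV assembly, were not bound.

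Genes that maintain or express mitochondrial DNA had 1 bound of 15, mtSSB, the mitochondrial single-strand DNA-binding protein, at 225. TFAM at 34.3 and PolrMT at 54.4, the packaging factor and the RNA polymerase of mitochondrial DNA, were not bound. Import genes had 2 bound of 15, Tom7 at 127 and Tim17b1 at 152, and Tom40 (21.6), Tom20 (36.2) and Tim23 (39.5) were not bound. Mitochondrial ribosomal protein genes had 19 bound of 73 (26.0%), from 76.3 at mRpS29 to 1778 at mRpL41. Cytoplasmic ribosomal protein genes had 52 bound of 93 (55.9%), with the highest signal, 675, at RpS27. No test was made between the lists.

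Known sequence words were counted within 50 bp of the 16 member summits, on both strands, beside the 1622 gene-near summits and 19247 windows of 101 bp centred 100 bp upstream of each protein-coding TSS. The homeodomain words TAATTA and TAATTG each occurred at 2 of the 16 (12.5%), TAATTA at ND-24 and ND-MNLL and TAATTG at COX8 and ND-ASHI. Their shares were 8.94% and 10.8% at gene-near summits and 8.23% and 9.82% in the upstream windows. CAGCTG, an E-box, occurred at 2 (12.5%, against 4.87% and 5.52%), at ATPsynCF6 and ND-42. GAGAG occurred at 1, COX6B (6.25%, against 9.43% and 16%). Over 16 summits these are 1 or 2 occurrences each, and no difference from the background can be read from them.

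The nuclear respiratory gene element, which is known from Drosophila genes for mitochondrial proteins, was searched as TTACATAA, TTACGTAA, TTATATAA and TTATGTAA, of which the first and last are the same word on opposite strands. It was found at 1 summit, ND-MNLL (6.25%, against 2.47% and 1.69%). In the windows upstream of the TSSs it occurred in 3 of 23 windows of bound members, 1 of 76 of unbound subunits and 0 of 28 of copies. A gene with several starts gives several, partly overlapping windows. GAGAG and TAATTA also occurred in 3 of the 23 windows of bound members each, and in 5 and 7 of the 76 of unbound subunits. TATCGATA and GGTCACACT occurred in 0 of the 23, and in 5 and 4 of the 76. The element is thus not set apart from the other words by so few windows. TATCGATA, GGTCACACT, CACGTG and GCATGCGC did not occur at the 16 summits; TATCGATA was at 3.76% of the gene-near ones. At least 1 of the words was at 7 of the 16 (43.8%), against 36.7% of gene-near summits and 39.6% of upstream windows. The median content of G and C within 50 bp of the member summits was 32.2%, against 34.7% at all gene-near summits and 38.6% in the upstream windows.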

How the data were processed

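Chromatin immunoprecipitation of CG11085-eGFP was sequenced in 2 biological replicates, per the labels. For the aligner, the peak caller and the scale of its signal, names and versions were not given in the sources used. The authors deposited peak lists on dm6, with sonicated fragments of 200 to 800 bp: a list thresholded within each replicate, a conservative and a larger list over both, and a ranked file of regions. The deposited signal column holds a value that is never negative, the deposited score column ranks peaks, and the deposited IDR columns are a negative log10 (−log10) of the IDR. The 2 sets of values in the ranked file were tied to the replicates by identical regions: 94582 of 147249 regions of the first set were in the file of replicate 1 and 0 in that of replicate 2, and 73541 of the second set in that of replicate 2 and 0 in that of replicate 1.

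Summits were assigned to every protein-coding gene of Ensembl release 115 with a TSS within 1 kb. The 88 member genes have the same coordinates in the RefSeq annotation, and no peak lies beyond an arm's end there. Genes were described by counts beside all 13945 genes, with no test, since there is 1 group. All bound members were named, as were the 5 highest unbound ones, those bound only in another list, every copy beside its parent and the bound genes of the related lists, except that ribosomal genes are given by their count with 1 or 2 examples, and some are not reported here. The members and lists were chosen with earlier results of these data known. The assignment was tested on simulated peaks. Python 3.11.15, pandas 2.3.3, numpy 2.4.6 and matplotlib 3.10.9 were used.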

Additional observations from a re-analysis of the deposited data

How the results depend on the processing

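The 13 bound members came to 8 at an IDR of at most 0.001, 6 with the nearest TSS only, and 8 among the strongest regions that did not pass (chosen after seeing the data). All protein-coding genes came to 1190, 1481 and 1194 in that order, so the shares were 9.09% of members against 8.53% of genes, 6.82% against 10.6%, and 9.09% against 8.56%. Complex I came to 4 and 2 under the first and second, and complex IV to 2 under the second and 1 among regions that did not pass. Complex V came to 0 at the stricter IDR, and to 1 among regions that did not pass, as did complex III. A window of 2 kb gave complex II 1 gene, SdhC, with its summit 1955 bp away. The median member signal of 126 was 193 at the stricter IDR, 141 with the strongest of peaks that share a region, and 72.0 among regions that did not pass. It was 113 in the larger list, and 65.2 to 99.8 in the single-replicate lists, with either replicate left out. Signals were compared only within a list, so the values from these other lists are not read as a change. Upstream member peaks, 12 of 16, came to 7 of 8, 4 of 7 and 5 of 9 at the stricter IDR, with the nearest TSS, and among regions that did not pass. The other settings kept counts within 1.5 times their value and medians within 10.4, the SD of the 2 replicates' medians. A partner start within 250 bp gave 9 bound members with a partner and within 1000 bp 13, in place of 13, with these limits also chosen after seeing the data. At 100 bp from the summit, CAGCTG occurred at 5 member summits in place of 2, TATCGATA at 1 in place of 0, and GAGAG and the respiratory gene element at 2 each in place of 1. No share at gene-near summits or in upstream windows was taken at this width, so no difference from the background can be read from these counts.

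No paired analysis was possible because there is 1 group. The depth is unknown here, so an absent peak says only that none passed in these files.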
